A study of Nasonia vitripennis with 76 samples.

Results

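Def1-1 and Def1-2 are the defensin genes that carry a symbol in the gene tables of *Nasonia vitripennis*, a parasitoid wasp in which unfertilised eggs develop into haploid males and fertilised eggs into diploid females. They were taken by these symbols and are 2 of the 14621 genes counted. Their RNA was followed over 76 libraries of polyadenylated RNA in 16 groups, all of wasps 1 day after emergence and all of the TRA line, a neo-polyploid line obtained by knocking down transformer, a gene of the sex determination cascade. Every group carries that history, and no wasps of another line were analysed here. Diploid (2N) and haploid (1N) males were taken in generations F15 and F3, and triploid (3N) and diploid (2N) females in generations F14 and F2. Heads and abdomens were sequenced apart, with 5 libraries in each group but the abdomens of F3 2N males and F2 2N females, which have 3 each. The labels do not say whether a library holds 1 wasp or a pool, nor whether replicate libraries stem from different rearings, so the p-values measure only the spread between these libraries. No immune challenge is named in the labels, and no label gives a batch, so that generation and any batch of libraries cannot be told apart.

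Defensins are small secreted antimicrobial peptides held together by disulphide bonds, and in insects they act mainly against Gram-positive bacteria. In Drosophila they are made chiefly by the fat body, a sheet of tissue found in both head and abdomen, and by some epithelia and blood cells. Their genes are switched on through the Toll and Imd pathways, which end in transcription factors of the NF-kappa B type. Transcripts of such genes are known to rise after contact with microbes.

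The median library had a total count of 21.6 M, and the totals spanned 14.2 M to 60.1 M. The eye opsin Lop1 had 725 to 19747 CPM in the head libraries used and at most 5.70 CPM in abdomens. The library A34, labelled as a head of F2 3N females, had 0 CPM of Lop1 and 742 CPM of oskar, a germ plasm gene that had 403 to 718 CPM in female abdomens and at most 24.2 CPM in other female heads. A34 was therefore set apart and 75 libraries were tested. It had 1.75 CPM of Def1-1 and 10.99 CPM of Def1-2, inside the ranges of the F2 3N female abdomens. CPM here are counts scaled to a common library total after TMM scaling, which evens out library composition, and they compare a gene between libraries; the deposited TPM values, which are also per transcript length, were used to compare the 2 genes with each other. The expected counts of both genes were whole numbers in all 76 libraries, to within 1e-06, as they were for 71.05% of genes with a count.

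Both defensins were detected across the line, but at levels that spread widely inside most groups. Def1-2 had a count in each of the 75 libraries, from 0.398 to 1459 CPM. Def1-1 had 0 counts in 4 of them, which are A12 and A15A of F3 2N male heads, A18 of F3 2N male abdomens and A28 of F2 2N female abdomens. A count of 0 allows up to 3 counts, or 0.129, 0.189, 0.151 and 0.119 CPM in these libraries. Per transcript length, Def1-2 stood above Def1-1 in 73 of 75 libraries. Ranked by mean log2(CPM + 1), F14 3N female heads were highest for both genes, at 6.46 ± 2.73 for Def1-1 and 8.37 ± 2.10 for Def1-2 (SD, n = 5). F14 2N female heads came next for Def1-1 at 5.02 ± 0.98, and F15 2N male abdomens came next for Def1-2 at 7.55 ± 1.74 (SD, n = 5). The lowest groups were F3 2N male abdomens for Def1-1, at 0.30 ± 0.41, and F2 2N female abdomens for Def1-2, at 1.87 ± 1.23 (SD, n = 3). For each gene, all 15 pairs of neighbours in that order had overlapping libraries, so the order is not resolved between neighbours. Inside groups with no library at 0, the highest library was up to 293 times the lowest for Def1-1, in F15 2N male abdomens, and up to 43.7 times for Def1-2, in F14 3N female heads.

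**Figure D1:**
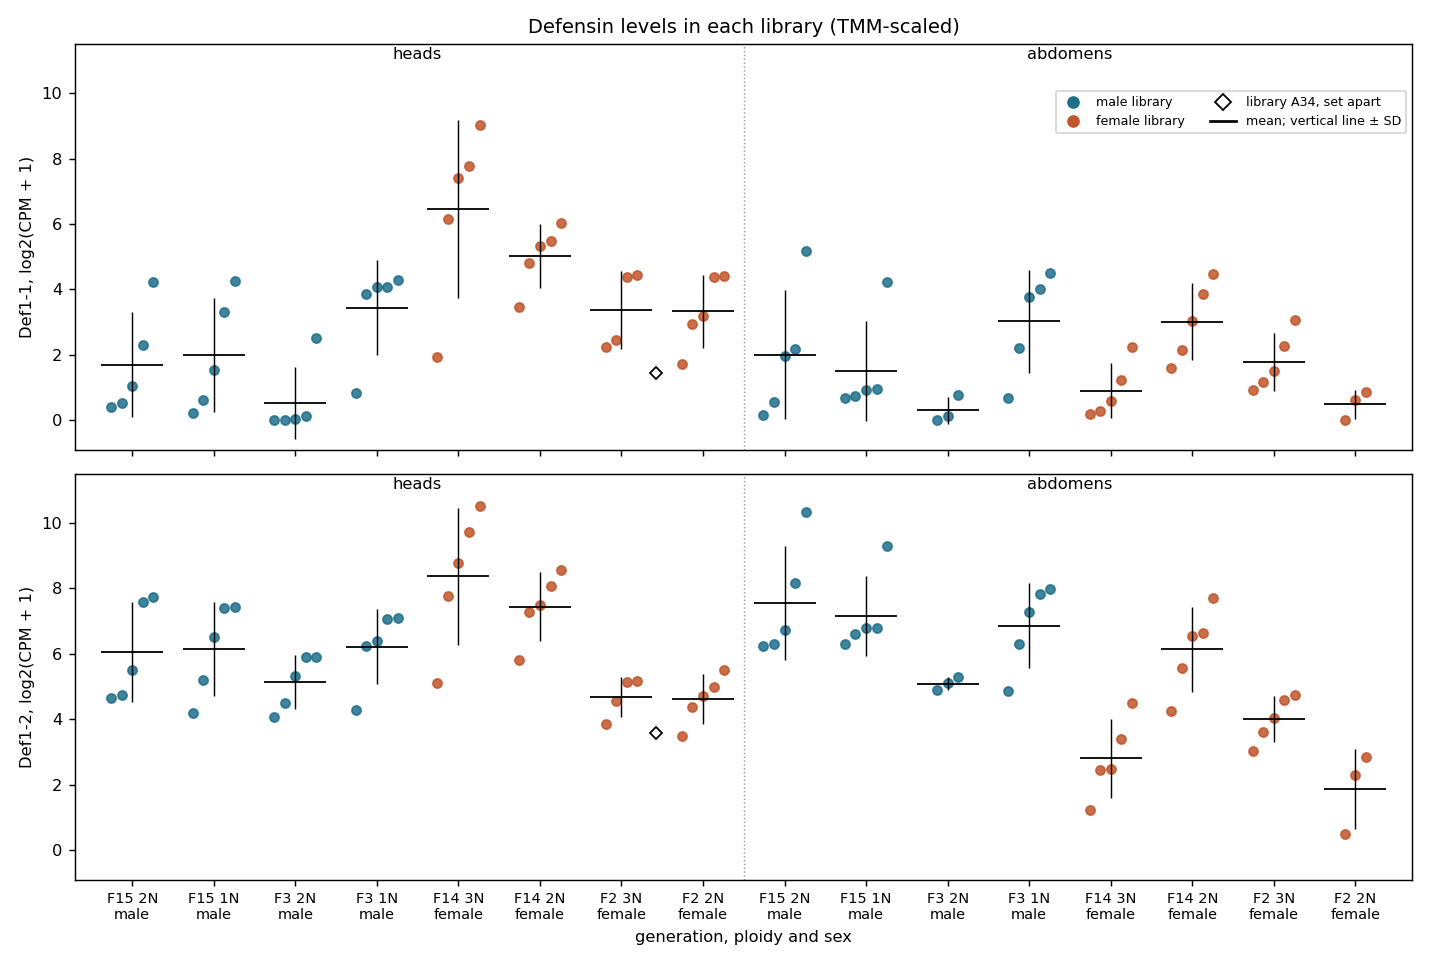
Levels of Def1-1 (upper panel) and Def1-2 (lower panel) in every library as log2(CPM + 1), by generation, ploidy and sex, heads left of the dotted line and abdomens right of it. Bars are group means and vertical lines ± SD (n = 5, or 3 in 2 abdomen groups and 4 in F2 3N female heads); the open diamond is A34. F14 female heads hold the highest Def1-1 values, and for Def1-2 most female abdomens lie below every male abdomen.

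The first comparison was between tissues. Averaged over the 4 female groups, both defensins were higher in heads than in abdomens. Def1-1 had 2.33 to 518 CPM in 19 female heads (median 20.1) and 0 to 21.1 CPM in 18 female abdomens (median 1.60). Def1-2 had 10.2 to 1459 CPM in female heads (median 44.2) and 0.398 to 208 CPM in female abdomens (median 13.4). The ranges overlap for both genes, with abdomens of F14 2N, F14 3N and F2 3N females reaching into the range of the heads. The head minus abdomen difference, taken as the mean over the 4 female groups, was 4.03 ± 0.55 on the log2 scale for Def1-1 (SE; edgeR quasi-likelihood test, Benjamini-Hochberg adjusted p = 3.58e-08). For Def1-2 it was 2.78 ± 0.41 (edgeR adjusted p = 2.21e-07). In that comparison 88.7% of the 12145 genes tested were called, that is had an adjusted p below 0.05, so a call is not particular to these genes.

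In males the head was not the higher tissue for either gene by these tests. Def1-1 had 0 to 18.7 CPM in 20 male heads (median 1.49) and 0 to 35.1 CPM in 18 male abdomens (median 0.912), with a log2 difference of 0.43 ± 0.75 (SE; edgeR adjusted p = 0.609). Def1-2 had 15.7 to 214 CPM in male heads (median 58.8) and 27.9 to 1286 CPM in male abdomens (median 101), and was lower in heads by a log2 difference of -0.88 ± 0.40 (edgeR adjusted p = 0.0456). Here 80.5% of genes were called. The Def1-2 call was lost when any 1 of A10, A1A, A2A, A6, A7, A72, A78 or A88 was left out, at -0.53 without A88 and -0.61 without A78. A contrast added after these values were seen, the male head minus abdomen difference less the female one in a fit over all groups, gave -3.54 ± 0.97 for Def1-1 (edgeR adjusted p = 0.00074) and -3.60 ± 0.59 for Def1-2 (edgeR adjusted p = 1.26e-07), where 79.1% of genes were called. Without A20 the Def1-1 value was -2.95 with an edgeR adjusted p of 0.199. Of markers of the fat body, the hexamerins Hex109, Hex70b and Hex83, all 3 had a count in every library used, and their summed level was 8.67 to 24.9 CPM in female heads and 1.03 to 10.1 CPM in female abdomens. The same sum was 2.62 to 29.4 CPM in male heads and 2.86 to 54.8 CPM in male abdomens, while the sum of the blood cell markers ppo1 and ppo3, both prophenoloxidases, was 2.24 to 16.3 CPM in female heads and 0.0398 to 5.71 CPM in female abdomens, and 0.916 to 12.02 CPM in male heads and 0.454 to 32.1 CPM in male abdomens. The 2 blood cell markers went opposite ways between tissues. The median of ppo3 was 2.86 CPM in female heads and 0.0728 CPM in female abdomens. In males it was 1.91 CPM in heads and 0.0813 CPM in abdomens. The median of ppo1 was 1.795 CPM in female heads and 2.31 CPM in female abdomens. In males it was 0.795 CPM in heads and 7.79 CPM in abdomens. The part of either sum in the defensin differences was not tested. In bulk tissue, fewer cells of a type and less RNA per cell cannot be told apart.

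Sex was compared at 2N, so that ploidy was equal, with F3 or F15 males against F2 or F14 females, 1 generation apart. Heads of 2N males had less Def1-1 than heads of 2N females. In the early generations the 5 male heads had 0, 0, 0.0385, 0.0946 and 4.68 CPM of Def1-1, against 2.33, 6.72, 8.13, 19.7 and 20.1 CPM in female heads. All but A14 of the male libraries lay below every female library. In the late generations the male heads had 0.315, 0.446, 1.08, 3.89 and 17.9 CPM, against 10.0, 26.8, 39.1, 43.9 and 64.5 CPM in female heads, and A82 was the male library that reached into the female range. The log2 difference was -3.49 ± 1.23 early (SE; edgeR adjusted p = 0.0211; 44.6% of 11530 genes called) and -2.96 ± 1.15 late (edgeR adjusted p = 0.0299; 52.7% called). Its change between periods was 0.53 ± 1.58 (edgeR adjusted p = 0.788; 57.9% called).

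Both calls for Def1-1 rest on few libraries. The early call was lost at -3.18 without A11 and at -3.18 without A12, and the value without A14 was -7.91. The late call was lost without A61, A81, A83, A84 or A85, at values of -2.91 to -2.66, and the value without A82 was -4.62. Def1-2 passed no test between the sexes in heads, with log2 differences of 0.60 ± 0.71 early (edgeR adjusted p = 0.512) and -1.03 ± 0.71 late (edgeR adjusted p = 0.227), and a change between periods of -1.63 ± 1.01 (edgeR adjusted p = 0.166). Early male heads had 15.7, 21.8, 39.2, 58.7 and 58.8 CPM of Def1-2 against 10.2, 19.8, 25.3, 30.9 and 44.2 CPM in female heads. The late male heads had 23.9, 25.8, 44.2, 192 and 214 CPM against 54.7, 155, 179, 266 and 376 CPM in female heads. The groups overlap in both periods.

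In abdomens it was Def1-2 that differed between the sexes. The 3 early male abdomens had 28.6, 33.4 and 37.8 CPM of Def1-2, against 0.398, 3.93 and 6.12 CPM in the 3 female abdomens, and the groups do not overlap. The late male abdomens had 74.9, 78.1, 104, 286 and 1286 CPM, against 18.1, 46.6, 92.3, 97.8 and 208 CPM in female abdomens, where the groups overlap. The log2 difference was 3.20 ± 1.14 early (SE; edgeR adjusted p = 0.0117; 81.5% of 12252 genes called) and 1.92 ± 0.82 late (edgeR adjusted p = 0.0364; 75.4% called). The early call was lost at 2.66 without A28. The late call was lost without A66, A67, A68 or A69, at values of 1.65 to 1.93, and the difference was 0.50 without A88, the male abdomen with 1286 CPM. The change between periods was -1.28 ± 1.33 (edgeR adjusted p = 0.452; 45.1% called). Def1-1 passed no test there, at -0.76 ± 1.78 early (edgeR adjusted p = 0.700), -0.22 ± 1.15 late (edgeR adjusted p = 0.867) and a change of 0.53 ± 2.10 (edgeR adjusted p = 0.865). The hexamerin sum was 32.97 to 54.8 CPM in early male and 1.03 to 3.70 CPM in early female 2N abdomens, and 7.01 to 18.8 CPM in late male and 4.74 to 9.15 CPM in late female 2N abdomens. The sum of the blood cell markers ppo1 and ppo3 was 14.1 to 32.1 CPM in early male and 0.0398 to 4.65 CPM in early female 2N abdomens, with ppo1 at 0 in 1 of these females and ppo3 at 0 in 1 of these males. In late 2N abdomens it was 0.755 to 15.1 CPM in males and 1.19 to 5.71 CPM in females, which overlap. The part of either sum in the Def1-2 difference was not tested.

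The next comparison was between generations within each ploidy, sex and tissue. In female heads the defensins were higher in F14 than in F2. F14 3N female heads had 2.82, 69.6, 169.9, 219 and 518 CPM of Def1-1, against 3.70, 4.48, 19.8 and 20.5 CPM in F2 3N female heads. For Def1-2 the F14 3N heads had 33.4, 218, 433, 836 and 1459 CPM, against 13.4, 22.5, 34.2 and 34.6 CPM in F2 3N heads. In both genes 4 of the 5 F14 libraries lay above every F2 library, and A55 lay below the F2 range for Def1-1 and inside it for Def1-2. Def1-1 rose by 4.03 ± 1.04 (SE; edgeR adjusted p = 0.00831) and Def1-2 by 4.52 ± 0.85 (edgeR adjusted p = 0.000881) on the log2 scale, where 26.8% of 10987 genes were called. Without A55 the values were 4.41 and 4.83. With the 2 compared groups fitted alone, Def1-1 had the same difference at an edgeR adjusted p of 0.0613.

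F14 2N female heads had 54.7, 155, 179, 266 and 376 CPM of Def1-2, against 10.2, 19.8, 25.3, 30.9 and 44.2 CPM in F2 2N heads, and these groups do not overlap. The log2 difference was 2.97 ± 0.72 (SE; edgeR adjusted p = 0.00202; 57.2% called). Def1-1 had 10.0, 26.8, 39.1, 43.9 and 64.5 CPM in F14 2N heads, against 2.33, 6.72, 8.13, 19.7 and 20.1 CPM in F2 2N heads. That difference of 1.68 ± 0.87 did not pass (edgeR adjusted p = 0.106), and it passed at 1.71 with the 2 groups fitted alone (edgeR adjusted p = 0.0343). The number of genes with a count was also lower in F14 female heads, at 10575 to 11644, against 11366 to 12641 in F2 female heads. Median total counts were lower too, at 16.8 M in F14 3N and 16.9 M in F14 2N heads. They were 20.4 M in F2 3N and 22.5 M in F2 2N heads. Their summed hexamerin level was 11.6 to 24.9 CPM in F14 and 8.67 to 19.8 CPM in F2 female heads, which overlap. The members of this sum differed in direction. The Hex83 medians were higher in F14, at 10.1 against 5.66 CPM in F2 at 3N and 9.77 against 4.89 CPM at 2N. The Hex70b medians were lower in F14 at both ploidies, at 0.433 against 1.70 CPM in F2 at 2N. The Hex109 median was lower in F14 at 2N, at 1.86 against 2.67 CPM in F2. At 3N it was 2.47 CPM in F14 and 2.38 CPM in F2. The part of any of these values in the defensin difference was not tested.

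In female abdomens the rise with generation was seen at 2N. F14 2N abdomens had 2.01, 3.41, 7.14, 13.4 and 21.1 CPM of Def1-1, against 0, 0.547 and 0.811 CPM in F2 2N abdomens. Def1-2 had 18.1, 46.6, 92.3, 97.8 and 208 CPM in F14 2N abdomens, against 0.398, 3.93 and 6.12 CPM in F2 2N abdomens. In neither gene do the groups overlap. The log2 difference was 4.34 ± 1.29 for Def1-1 (SE; edgeR adjusted p = 0.0128) and 4.71 ± 1.04 for Def1-2 (edgeR adjusted p = 0.00263), where 45.9% of 10855 genes were called. Both remained called when any 1 of the 8 libraries was left out. The hexamerin sum was also higher, with no overlap, at 4.74 to 9.15 CPM in F14 2N and 1.03 to 3.70 CPM in F2 2N abdomens, and its part in the defensin difference was not tested. A28, the F2 2N abdomen with the lowest values, had 11020 genes with a count, against 11967 and 12008 in the other libraries of its group.

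At 3N the female abdomens passed no test between generations. F14 3N abdomens had 0.143, 0.233, 0.513, 1.36 and 3.72 CPM of Def1-1, against 0.901, 1.25, 1.84, 3.84 and 7.45 CPM in F2 3N abdomens. Def1-2 had 1.33, 4.42, 4.53, 9.47 and 21.5 CPM in F14 3N abdomens, against 7.14, 11.2, 15.5, 23.2 and 25.5 CPM in F2 3N abdomens. The groups overlap for both genes. Their log2 differences were -1.28 ± 0.91 for Def1-1 (SE; edgeR adjusted p = 0.408) and -0.94 ± 0.72 for Def1-2 (edgeR adjusted p = 0.451), where 10.7% of genes were called.

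In males the generations differed for Def1-2 in 2N abdomens. F15 2N abdomens had 74.9, 78.1, 104, 286 and 1286 CPM of Def1-2, against 28.6, 33.4 and 37.8 CPM in F3 2N abdomens, with no overlap. The log2 difference was 3.40 ± 1.11 (SE; edgeR adjusted p = 0.0223; 39.7% of 11773 genes called). That call was lost at 3.30 without A16, 3.50 without A18, 3.40 without A20 and 2.00 without A88, which has the highest total count of the series at 60.1 M. Def1-1 had 0.120, 0.484, 2.89, 3.56 and 35.1 CPM in F15 2N abdomens, against 0, 0.103 and 0.708 CPM in F3 2N abdomens. These groups overlap, and the difference of 4.83 ± 2.00 did not pass (edgeR adjusted p = 0.0642), although it did without A90, at 5.17 (edgeR adjusted p = 0.0383), and with DESeq2, at 4.87 (DESeq2 adjusted p = 0.00619). The hexamerin sum was 7.01 to 18.8 CPM in F15 and 32.97 to 54.8 CPM in F3 2N male abdomens, but its members differed in direction. The F15 medians of Hex109 and Hex83 were 4.01 and 3.21 CPM, below the F3 medians of 24.9 and 19.0 CPM. The median of Hex70b was higher in F15, at 4.57 CPM against 1.81 CPM in F3. The sum of ppo1 and ppo3 was 0.755 to 15.1 CPM in F15 and 14.1 to 32.1 CPM in F3 2N male abdomens, which overlap, and the part of either sum was not tested.

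The remaining male groups passed no test between generations. F15 1N abdomens had 0.594, 0.692, 0.891, 0.932 and 17.8 CPM of Def1-1, against 0.602, 3.62, 12.7, 15.05 and 21.8 CPM in F3 1N abdomens, a log2 difference of -1.19 ± 1.29 (SE; edgeR adjusted p = 0.478; 45.7% called). A78 was the F15 library with 17.8 CPM, and without it the difference was -3.72 and passed (edgeR adjusted p = 0.0306). Def1-2 had 77.9, 96.8, 108, 111 and 631 CPM in F15 1N abdomens, against 27.9, 77.9, 153, 228 and 254 CPM in F3 1N abdomens, with a difference of 0.65 ± 0.82 (edgeR adjusted p = 0.550). In 2N heads, with the levels given under sex, the F15 minus F3 difference was 2.21 ± 1.38 for Def1-1 (edgeR adjusted p = 0.226; 30.2% of 10943 genes called) and 1.34 ± 0.71 for Def1-2 (edgeR adjusted p = 0.150). Without A14 the Def1-1 value there was 6.63 and passed (edgeR adjusted p = 0.0143). F15 1N heads had 0.166, 0.538, 1.91, 8.89 and 18.2 CPM of Def1-1, against 0.803, 13.5, 16.03, 16.04 and 18.7 CPM in F3 1N heads, with a difference of -1.23 ± 1.29 (edgeR adjusted p = 0.468; 42.1% called). The Def1-2 levels in 1N heads were 17.1, 35.8, 90.04, 168 and 171 CPM in F15 and 18.4, 73.98, 83.6, 133 and 135 CPM in F3, with a difference of 0.04 ± 0.69 (edgeR adjusted p = 0.971).

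**Figure D2:**
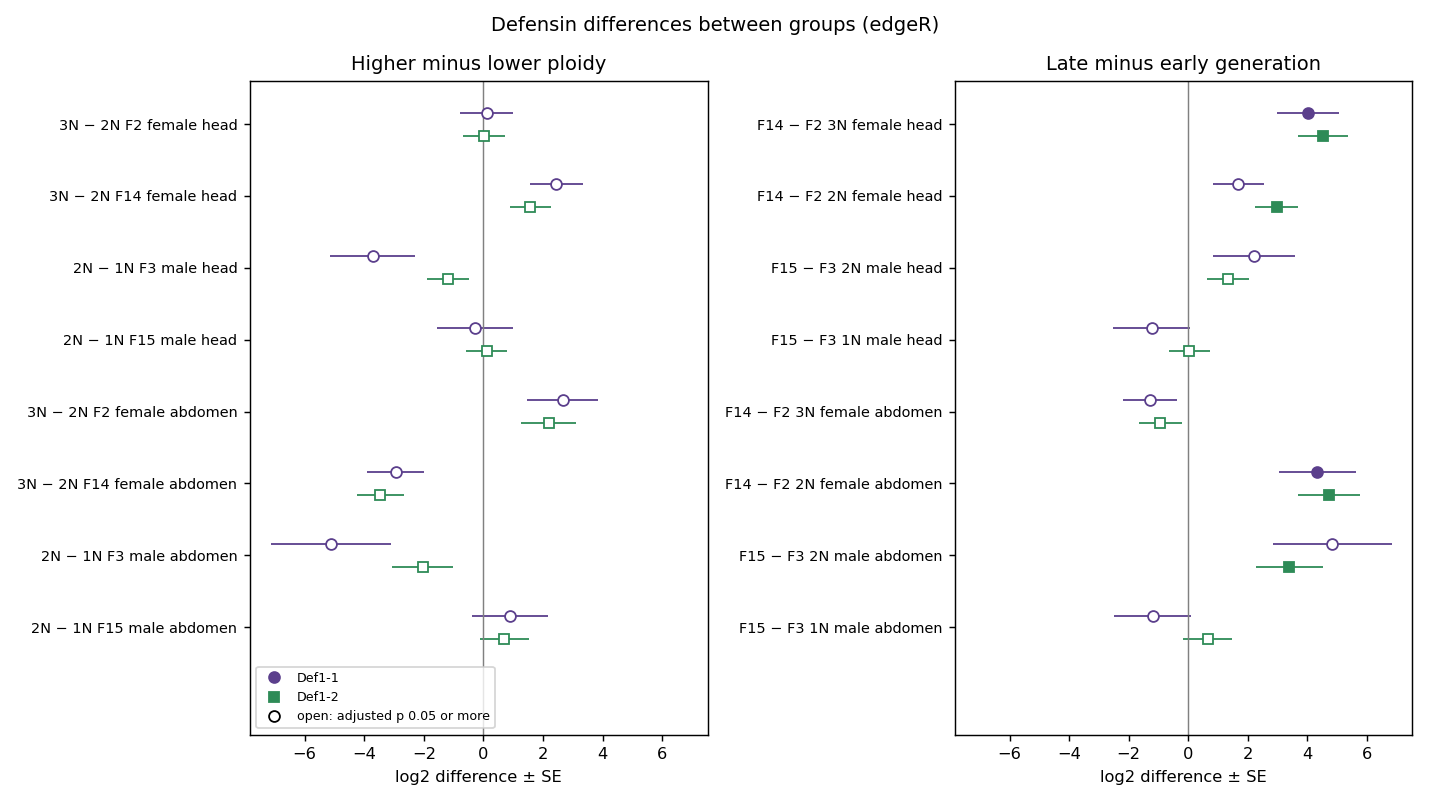
Log2 differences of Def1-1 (circles) and Def1-2 (squares) with their SE, for higher minus lower ploidy (left) and late minus early generation (right), from edgeR. Filled points have an adjusted p below 0.05. No ploidy difference is filled, and the filled generation differences lie between 2.97 and 4.71.

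Ploidies were compared within each generation, sex and tissue. Neither defensin passed the test in any of the 8 ploidy comparisons. Triploid minus diploid differences in F2 female heads were 0.11 ± 0.90 for Def1-1 (SE; edgeR adjusted p = 0.962) and 0.02 ± 0.72 for Def1-2 (edgeR adjusted p = 0.991), where 5.82% of genes were called. In F14 female heads they were 2.45 ± 0.88 (edgeR adjusted p = 0.118) and 1.57 ± 0.68 (edgeR adjusted p = 0.190), with 3.57% called. These last values were 2.77 and 1.88 without A55, when both passed (edgeR adjusted p = 0.0171 and 0.0350). The change of the ploidy difference from F2 to F14 in heads was 2.35 ± 1.26 for Def1-1 (edgeR adjusted p = 0.258) and 1.55 ± 0.99 for Def1-2 (edgeR adjusted p = 0.344), with 6.47% called.

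In female abdomens the ploidy differences lay on opposite sides of 0 in the 2 generations. In F2, triploids minus diploids gave 2.67 ± 1.19 for Def1-1 (SE; edgeR adjusted p = 0.305) and 2.19 ± 0.92 for Def1-2 (edgeR adjusted p = 0.285). There edgeR called 0 of 10855 genes, or 0%, with 1635 at an unadjusted p below 0.05, while DESeq2 called 394. In F14 the differences were -2.95 ± 0.96 (edgeR adjusted p = 0.122) and -3.46 ± 0.78 (edgeR adjusted p = 0.0915), where 6 genes or 0.0553% were called by edgeR and 613 by DESeq2. Both defensins were among those DESeq2 called, at -3.01 and -3.51 (DESeq2 adjusted p = 0.0228 and 0.000161). Both also passed in edgeR without A57, at -4.01 and -4.18, and Def1-2 without A67, at -3.72.

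The change of the ploidy difference between generations, tested as an interaction, was -5.62 ± 1.56 for Def1-1 (SE; edgeR adjusted p = 0.0353) and -5.65 ± 1.24 for Def1-2 (edgeR adjusted p = 0.0245) in female abdomens, with 11.3% of genes called. Its 4 groups are those whose levels are given above: for both genes every F14 2N abdomen stood above every F14 3N abdomen other than A57, and the F2 2N abdomens stood below all F2 3N abdomens. The Def1-2 call was lost at -5.75 without A27. The Def1-1 call was lost without A26, A27, A28, A36, A37, A38, A39, A56, A66, A69 or A70, each time at a value between -6.33 and -5.00 and an adjusted p of at most 0.0753. It was also lost with no filter on low counts, at -5.71 (edgeR adjusted p = 0.0527). The hexamerin sum was 4.50 to 10.1 CPM in F14 3N and 4.74 to 9.15 CPM in F14 2N abdomens. It was 2.36 to 3.06 CPM in F2 3N and 1.03 to 3.70 CPM in F2 2N abdomens. The ploidies overlap in both generations, and the part of the sum in the interaction was not tested.

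In males the ploidy comparison is of diploids with haploids. F3 2N heads had 0, 0, 0.0385, 0.0946 and 4.68 CPM of Def1-1, against 0.803, 13.5, 16.03, 16.04 and 18.7 CPM in F3 1N heads. A14 of the diploids and A1A of the haploids are the libraries by which the groups overlap. The difference was -3.72 ± 1.44 (SE; edgeR adjusted p = 0.0971; 12% of genes called), and it was -8.11 and passed without A14 (edgeR adjusted p = 0.0112). F3 2N abdomens had 0, 0.103 and 0.708 CPM of Def1-1, against 0.602, 3.62, 12.7, 15.05 and 21.8 CPM in F3 1N abdomens. Here the difference of -5.12 ± 2.02 lay just outside the threshold (edgeR adjusted p = 0.0515; 40.9% called), and it passed with DESeq2 at -5.26 (DESeq2 adjusted p = 0.00294), with the 2 groups fitted alone at -5.18 (edgeR adjusted p = 0.00893) and without A8 at -5.43 (edgeR adjusted p = 0.0426). For Def1-2 the F3 differences were -1.20 ± 0.70 in heads (edgeR adjusted p = 0.280) and -2.04 ± 1.03 in abdomens (edgeR adjusted p = 0.124), and the abdomen value passed at -2.11 with the 2 groups fitted alone (edgeR adjusted p = 0.0187).

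In F15 males no ploidy difference passed. The diploid minus haploid difference in heads was -0.28 ± 1.29 for Def1-1 (SE; edgeR adjusted p = 0.942) and 0.11 ± 0.69 for Def1-2 (edgeR adjusted p = 0.962), with 3.25% of genes called. In abdomens it was 0.90 ± 1.28 (edgeR adjusted p = 0.780) and 0.70 ± 0.82 (edgeR adjusted p = 0.718), with 4.11% called, and both turned negative without A88, at -1.34 and -0.69. The change of the ploidy difference from F3 to F15 did not pass for either gene. In heads it was 3.44 ± 1.89 for Def1-1 (edgeR adjusted p = 0.269; 8.64% called) and 1.31 ± 0.98 for Def1-2 (edgeR adjusted p = 0.432), with 7.78 for Def1-1 without A14 (edgeR adjusted p = 0.0335). In abdomens it was 6.02 ± 2.35 for Def1-1 (edgeR adjusted p = 0.0778; 21.5% called) and 2.75 ± 1.31 for Def1-2 (edgeR adjusted p = 0.146). Without A78 these were 8.55 and 3.91 and both passed (edgeR adjusted p = 0.00985 and 0.0270), Def1-1 passed without A90 at 6.41 (edgeR adjusted p = 0.0474), and it passed with DESeq2 at 6.08 (DESeq2 adjusted p = 0.0161).

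The balance between the 2 genes was read from TPM as the share of Def1-1 in their sum. It had a median of 3.48% in male heads (0 to 27.1%) and 31.004% in female heads (11.6 to 51.98%). In abdomens the median was 2.58% in males (0 to 12.5%) and 16.4% in females (0 to 35.3%). At 2N, early male heads held 0 to 16.5% against 27.9 to 51.98% in female heads, and late male heads 2.04 to 11.7% against 20.5 to 25.3% in female heads. Late male abdomens held 0.270 to 5.60% against 11.01 to 19.9% in female abdomens. In these 3 comparisons the sexes do not overlap.

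The sexes were compared on log2((TPM of Def1-1 + 1)/(TPM of Def1-2 + 1)) after these shares had been seen. The male minus female difference was -5.72 ± 1.11 in early heads, -2.69 ± 0.42 in late heads and -3.01 ± 0.65 in late abdomens (SE, 5 against 5 libraries; two-sided exact permutation p = 0.00794 each, the smallest such a design allows, and 0.0106 adjusted over 4 comparisons). In early abdomens it was -4.15 ± 0.88, where 3 against 3 libraries allow no exact p below 0.1, which is the value found. Leaving out any 1 library changed none of these calls, with exact permutation adjusted p of 0.0106 to 0.0212 in the 3 that passed. The sexes do not overlap in those 3, so leaving out 1 library could hardly change them. Early abdomens could not pass in any case. The sizes of differences that hold libraries without Def1-1 depend on the pseudocount. In the F3 2N male heads A12 and A15A the log2 ratio was -7.24 and -8.43 with 1 TPM. With 0.1 TPM it was -10.6 and -11.7.

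Between ploidies and generations the same ratio passed in 0 of 16 comparisons after adjustment by the exact permutation test, with 5 at an unadjusted p below 0.05 and a smallest adjusted p of 0.0952. Those 5 are the late minus early differences of -1.16 ± 0.27 in 2N female heads, -1.98 ± 0.65 in 1N male heads and -2.29 ± 0.45 in 1N male abdomens, and the diploid minus haploid differences of -4.08 ± 1.14 in F3 heads and -2.63 ± 0.88 in F3 abdomens. The exact permutation test allows no p below 0.00794 with 5 against 5 libraries, or below 0.0179 with 5 against 3. The 2N female heads were at that smallest p of 0.00794 and still had an exact permutation adjusted p of 0.0952. Among 16 comparisons, 1 at its smallest p cannot pass alone, and others would have had to come near it too. For that reason 0 of 16 does not show that the ratio was alike. The median share of Def1-1 was 0.266% in F3 2N male heads and 16.5% in F3 1N male heads, and 0.573% and 9.85% in the F3 2N and F3 1N abdomens. The F3 haploids were thus the male groups with the highest shares. RSEM, which made the counts, divides reads that match several genes by estimation. The counts of both genes are whole in every library, as given above, and the part of shared reads in the ratio was not tested.

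**Figure D3:**
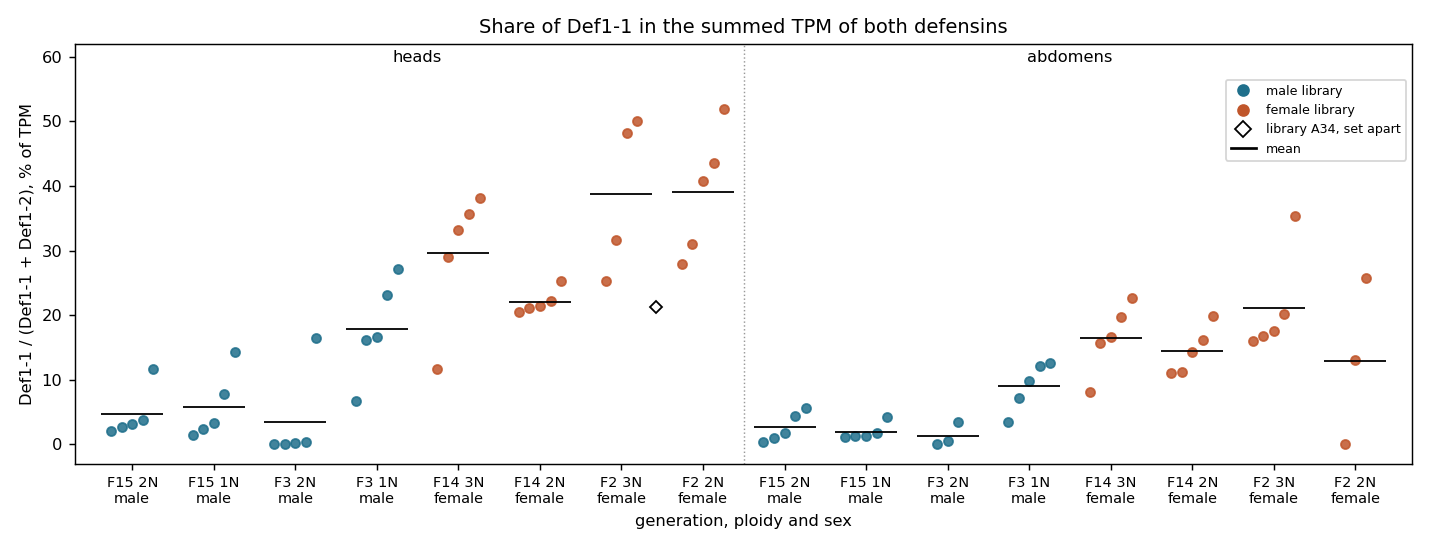
Share of Def1-1 in the summed TPM of both defensins in every library (percent), by generation, ploidy and sex, heads left of the dotted line and abdomens right of it; bars are group means and the open diamond is A34. At 2N the male points lie below the female points of the same tissue and period, apart from early abdomens, where 1 library of each sex has a share of 0.

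Inside groups the 2 genes moved together. The group mean was subtracted from log2(CPM + 1) of each library and the remainders were compared, a relation examined after the levels had been seen. Over 39 head libraries Pearson's r was 0.899 and Spearman's rho 0.862, and over 36 abdomen libraries r was 0.920 and rho 0.893 (permutation within groups, p = 1e-05 for each, the smallest that 100000 permutations can give, also after adjustment over both tissues). Without A54 and A55, the libraries farthest from the median of Def1-1, r in heads was 0.853, and without A78 and A88 r in abdomens was 0.883. A library high in 1 defensin for its group was thus high in the other. Over the 16 group means, by contrast, r was 0.62, which is given as a description.

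**Figure D4:**
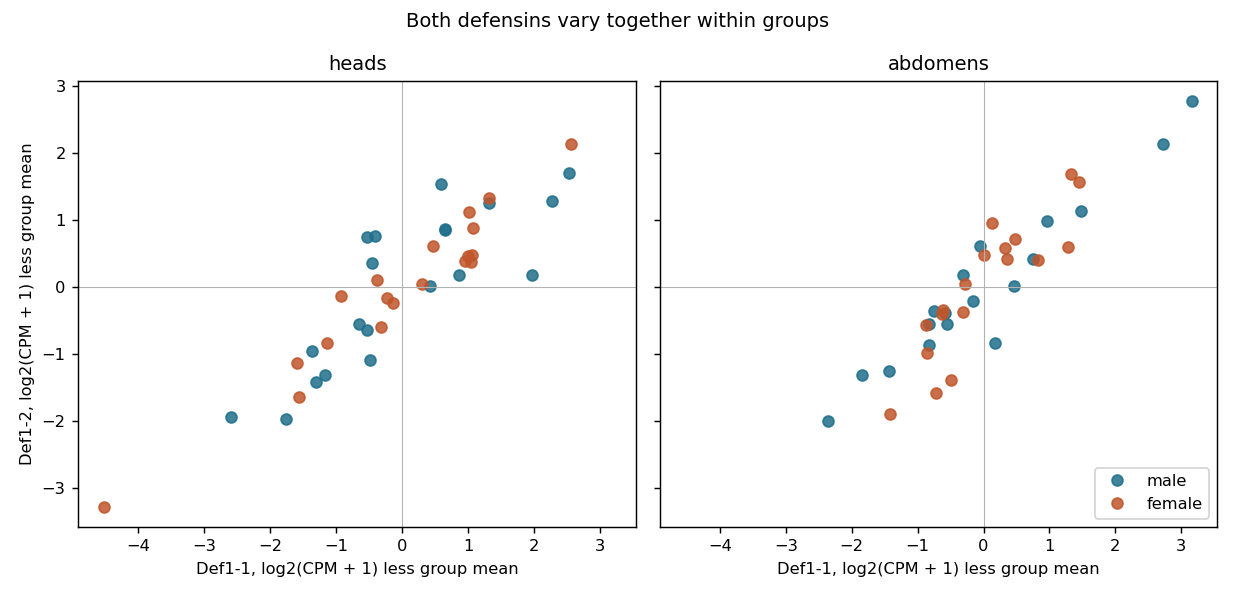
Def1-2 against Def1-1 in each library, both as log2(CPM + 1) less the mean of the library's group, for heads (left, n = 39) and abdomens (right, n = 36), coloured by sex. The points rise together in both tissues and both sexes, with r of 0.899 in heads and 0.920 in abdomens.

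Among 12872 genes ranked by such within-group correlation over 75 libraries, each defensin was the first for the other, at r = 0.904. The next for Def1-1 were LOC100122694 (0.84), LOC103315574 (0.80), LOC100113559 (0.79) and LOC116416940 (0.79). For Def1-2 they were LOC100122694 (0.89), LOC116416940 (0.86), LOC100116503 (0.83) and LOC103315574 (0.82). Thus 3 of the 4 were on both lists. LOC116416940 had 0.119 to 1784 CPM over the libraries and LOC100116503 had 0.477 to 4578 CPM, spreads as wide as those of the defensins. Over the 16 group means the nearest to Def1-1 were LOC103315574 (r = 0.88), LOC100124257 (0.87), LOC100116503 (0.84), LOC107980942 (0.83) and LOC107982185 (0.83). For Def1-2 these were LOC116416940 (0.94), LOC100122694 (0.91), LOC100119054 (0.89), LOC100123702 (0.88) and LOC100115922 (0.87). LOC107980942, listed for Def1-1, had a median of 0 CPM and at most 1.14 CPM over the libraries, so its value rests on few counts. The sources used here pair these identifiers with no product name, the libraries share depth and tissue, and the values are descriptions.

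Other genes of the defence response that carry a symbol are few. They are Gnbp1-2, of a family whose Drosophila member GNBP1 takes part in sensing Gram-positive bacteria; Imd, the adaptor of the Imd pathway; ppo1 and ppo3, prophenoloxidases of the melanisation reaction; and serpin5, of the serine protease inhibitors, some of which restrain Toll and melanisation cascades. Each is given where it passed, by lowest adjusted p. In F14 minus F2 3N female heads, where both defensins rose, serpin5 rose by 1.08 ± 0.35 (SE; edgeR adjusted p = 0.0297), Gnbp1-2 fell by 2.14 ± 0.38 (edgeR adjusted p = 0.000545) and the other 3 did not pass. The median of the 5 was -0.02 there and that of all genes was -0.02, with 26.8% of all genes called. In 2N female heads ppo3 rose by 1.70 ± 0.46 (edgeR adjusted p = 0.00394), Gnbp1-2 fell by 1.39 ± 0.36 (edgeR adjusted p = 0.00292) and ppo1 fell by 1.86 ± 0.65 (edgeR adjusted p = 0.0212). That comparison called 57.2% of all genes, so these calls are not particular to the list. In 2N female abdomens serpin5 rose by 0.39 ± 0.15 (edgeR adjusted p = 0.0411), and in 2N male abdomens by 1.02 ± 0.24 (edgeR adjusted p = 0.00262); 1 of 4 tested members passed in each, beside 45.9% of all genes in the females and 39.7% in the males. Within groups serpin5 correlated with Def1-1 at r = 0.64 and with Def1-2 at 0.59, while Imd stood at -0.00017 and -0.03.

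In the other male generation comparisons Gnbp1-2 rose by 1.15 ± 0.32 in 2N heads (SE; edgeR adjusted p = 0.0129), by 1.78 ± 0.32 in 1N heads (edgeR adjusted p = 0.000219) and by 1.10 ± 0.21 in 1N abdomens (edgeR adjusted p = 0.000386). In 1N heads Imd and serpin5 also rose, by 0.73 ± 0.13 and 1.08 ± 0.28 (edgeR adjusted p = 0.000199 and 0.0043), and in 2N heads ppo3 and ppo1 fell, by 1.50 ± 0.48 and 2.18 ± 0.82 (edgeR adjusted p = 0.0242 and 0.0495). The share of all genes called was 30.2% in 2N heads, 42.1% in 1N heads and 45.7% in 1N abdomens. Between ploidies 2 members passed in single groups. Imd fell by 0.51 ± 0.13 in F15 2N against 1N male heads (edgeR adjusted p = 0.0359), with an interaction of -0.73 ± 0.18 (edgeR adjusted p = 0.0210), and Gnbp1-2 rose by 0.86 ± 0.24 in F3 2N against 1N male abdomens (edgeR adjusted p = 0.00811). Of all genes, 3.25% were called in these F15 male heads, 8.64% in that interaction and 40.9% in these F3 male abdomens.

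Between the sexes, 4 of 5 members were called higher in early 2N male than female abdomens, where 42.6% of all genes were called higher and 81.5% in either direction, led by serpin5 at 1.20 ± 0.22 (SE; edgeR adjusted p = 9.36e-06), Imd at 1.04 ± 0.23 (edgeR adjusted p = 0.00015) and ppo1 at 3.03 ± 1.06 (edgeR adjusted p = 0.0101). In late abdomens 2 of 5 were, beside 38.5% of all genes called higher and 75.4% in either direction, with serpin5 at 1.82 ± 0.17 (edgeR adjusted p = 4.12e-11) and Imd at 1.80 ± 0.18 (edgeR adjusted p = 1.94e-10). The list's median was 1.20 early and 0.74 late, beside 0.25 and 0.16 for all genes. From early to late the difference of Imd grew by 0.77 ± 0.29 (edgeR adjusted p = 0.0309). In early heads Imd was higher in 2N males, at 0.37 ± 0.14 (edgeR adjusted p = 0.0317). In heads Gnbp1-2 was lower in early 2N males, at -1.68 ± 0.35 (edgeR adjusted p = 0.000345), and higher in late 2N males, at 0.85 ± 0.35 (edgeR adjusted p = 0.0385), a change of 2.53 ± 0.49 (edgeR adjusted p = 6.32e-05). Likewise ppo3 was higher at 1.20 ± 0.47 early (edgeR adjusted p = 0.0368) and lower at -2.01 ± 0.48 late (edgeR adjusted p = 0.000801), a change of -3.21 ± 0.67 (edgeR adjusted p = 0.000154). Head minus abdomen, ppo3 was higher in females, at 5.07 ± 0.42 (edgeR adjusted p = 4.22e-13), and in males, at 3.98 ± 0.43 (edgeR adjusted p = 2.84e-10). Gnbp1-2 was lower in heads, at -2.53 ± 0.14 in females (edgeR adjusted p = 1.72e-17) and -2.53 ± 0.14 in males (edgeR adjusted p = 1.73e-17), as were Imd at -1.01 ± 0.07 (edgeR adjusted p = 1.07e-14) and serpin5 at -1.78 ± 0.13 (edgeR adjusted p = 1.44e-14) in males. The male less female value of that tissue difference was -1.63 ± 0.19 for serpin5 (edgeR adjusted p = 7.1e-12), -0.94 ± 0.12 for Imd (edgeR adjusted p = 6.4e-11) and -2.90 ± 0.57 for ppo1 (edgeR adjusted p = 7.05e-06). The shares of all genes called in these head and tissue comparisons are given above and run from 44.6% to 88.7%.

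In the gene order of the reference assembly Nvit_psr_1.1, Def1-1 and Def1-2 are next to each other and their spans do not overlap. The span of LOC100119850, on the other side of Def1-1, overlaps that of Def1-1, and the sources do not say whether reads were counted by strand, so reads of the overlap cannot be assigned from the counts alone. The pattern of LOC100119850 was unlike that of Def1-1: it had at most 2.29 CPM in female heads and 12.8 to 35.1 CPM in female abdomens, and at most 0.629 CPM in male heads and 9.91 CPM in male abdomens. Within groups it correlated with Def1-1 at r = -0.09. Of the other neighbours, LOC100119814 beyond it had a median of 1.25 CPM in male heads and 16.8 CPM in female abdomens, and LOC103315470 and LOC100677949, beyond Def1-2, had medians of at most 0.189 and 5.40 CPM in any sex and tissue. Within groups the correlation of these 3 with either defensin was at most 0.33, against 0.904 between the defensins themselves.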

How the data were processed

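RNA libraries were made with a poly-A kit from RNA extracted without DNase treatment, per the labels' protocols. The authors deposited expected counts and TPM values for each gene, and the submitters' processing notes name STAR 2.7.11a and RSEM 1.3.1. For genome build, annotation and strand setting the entry is "not given in the sources used here". Expected counts were rounded to whole numbers, TMM-scaled, filtered with filterByExpr and tested in R 4.3.3 by edgeR 4.0.16 (quasi-likelihood test, robust setting), Benjamini-Hochberg adjusted over all genes of a fit, with calls below 0.05. Fits were made per sex and tissue (ploidy, generation, interaction), per tissue (sex), per sex (tissue) and over all 16 groups (tissue by sex, added after the data were seen). CPM used TMM factors over the 76 libraries. The SE is the log2 difference divided by the root of the test's F. Ratios of TPM, with a pseudocount of 1, were tested by exact permutation. Intervals for counts of 0 cover counting error only.

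The members, gene lists and tests were chosen with earlier results of these data known. Named are the defensins, up to 3 called immune list members per comparison, 2 genes on each side in the reference order and the 5 most alike genes. The immune list and the markers were matched by symbol, since no product names are given; no symbol of a vitellogenin or apolipophorin matched. Sequences of the genes and their promoters were not analysed here. The fits were tested on simulated data. Alternatives were RLE scaling, DESeq2 1.42.0, no filter, A34 kept, A1A, A2A, A15A and A35 left out, compared groups alone, each library left out, and a pseudocount of 0.1 TPM.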

Additional observations from a re-analysis of the deposited data

Results flagged for a closer look

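In 28 combinations of gene and group with 4 or 5 libraries, the library at either end was compared with the others by Dixon's test. The test was made on log2(CPM + 1), so libraries high in CPM need not be flagged, and it flags about 1 in 20 groups by chance. Def1-1 stood apart in A14 of F3 2N male heads, the highest of its group at 4.68 CPM, and in A1A of F3 1N male heads, the lowest of its group at 0.803 CPM. In F15 1N male abdomens A78 was the highest for Def1-1 at 17.8 CPM and for Def1-2 at 631 CPM.

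The ploidy difference in female abdomens differed between F14 and F2 by a tested interaction of -5.62 for Def1-1 and -5.65 for Def1-2 on the log2 scale. The head minus abdomen difference differed between males and females by -3.54 for Def1-1 and -3.60 for Def1-2, in a contrast added after the data were seen.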

How the results depend on the processing

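Under RLE scaling no difference of either defensin changed direction or its side of the 0.05 threshold, although RLE moved the median gene by 0.23 in the early and 0.16 in the late sex comparison of abdomens, 0.18 in female head minus abdomen and -0.34 in the tissue by sex contrast (log2). With A34 kept, triploid minus diploid in F2 female heads was -0.17 for Def1-1 and -0.17 for Def1-2, against 0.11 and 0.02. With the compared groups alone, late minus early in female heads was 4.03 for Def1-1 at 3N, where the call was lost, and 1.71 at 2N, where it was gained, diploid minus haploid in F3 male abdomens was called at -5.18 for Def1-1 and -2.11 for Def1-2, and the Def1-2 sex difference in late abdomens was no longer called at 1.94. DESeq2 also called triploid minus diploid in F14 female abdomens at -3.01 for Def1-1 and -3.51 for Def1-2, and in male abdomens, for Def1-1, diploid minus haploid in F3 at -5.26, F15 minus F3 at 2N at 4.87 and the interaction at 6.08. With no filter on low counts the Def1-1 interaction in female abdomens (-5.71) and Def1-2 in male head minus abdomen (-0.88) lost their calls. Without A1A, A2A, A15A and A35 the latter was lost at -0.91, and F15 minus F3 in 1N male heads was -0.33 for Def1-2. With a pseudocount of 0.1 TPM the log2 ratio difference was 0.99 for triploid minus diploid in F2 female abdomens, 0.34 for F14 minus F2 in 2N female abdomens and -0.018 for diploid minus haploid in F15 male abdomens, none of which passed in either form. The cause of these changes was not tested. Calls among the 5 immune list members, 23 higher and 18 lower in 135 tests over 29 comparisons (30.4%, beside a mean of 36.2% of all genes called, weighted by the members tested), were 20 to 25 higher and 17 to 20 lower under RLE, DESeq2, no filter and A34 kept.

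Leaving out each library in turn changed a direction or a call in the following comparisons, with the libraries behind each called value named beside it above. Def1-1 ran from -0.28 to 0.40 in 3N minus 2N F2 female head, 1.67 to 2.77 in 3N minus 2N F14 female head and -8.11 to -3.38 in 2N minus 1N F3 male head. The Def1-1 difference was -1.99 to 0.73 in 2N minus 1N F15 male head, 0.55 to 6.63 in F15 minus F3 2N male head and 1.70 to 7.78 in the change of the ploidy difference from F3 to F15 male head. For Def1-1 it was -4.01 to -2.39 in 3N minus 2N F14 female abdomen, -6.68 to -5.00 in the change of the ploidy difference from F2 to F14 female abdomen and -7.48 to -4.57 in 2N minus 1N F3 male abdomen. Def1-1 ran from -1.34 to 3.43 in 2N minus 1N F15 male abdomen, 2.60 to 7.19 in F15 minus F3 2N male abdomen and -3.72 to -0.77 in F15 minus F3 1N male abdomen. The Def1-1 difference was 3.79 to 8.55 in the change of the ploidy difference from F3 to F15 male abdomen, -7.91 to -3.18 in 2N male minus 2N female early head and -4.62 to -2.66 in 2N male minus 2N female late head. For Def1-1 it was -1.13 to 4.94 in the change of the sex difference from early to late head, -2.46 to 0.32 in 2N male minus 2N female late abdomen and -1.60 to 2.95 in the change of the sex difference from early to late abdomen. Def1-1 ran from -0.77 to 1.03 in male head minus abdomen and -4.65 to -2.95 in the male less female tissue difference. Def1-2 ran from -0.18 to 0.29 in 3N minus 2N F2 female head, 0.91 to 1.91 in 3N minus 2N F14 female head and -0.39 to 0.41 in 2N minus 1N F15 male head. The Def1-2 difference was -0.27 to 0.31 in F15 minus F3 1N male head, -4.18 to -2.89 in 3N minus 2N F14 female abdomen and -6.37 to -5.09 in the change of the ploidy difference from F2 to F14 female abdomen. For Def1-2 it was -0.69 to 1.86 in 2N minus 1N F15 male abdomen, 2.00 to 3.69 in F15 minus F3 2N male abdomen and -0.51 to 0.93 in F15 minus F3 1N male abdomen. Def1-2 ran from 1.36 to 3.91 in the change of the ploidy difference from F3 to F15 male abdomen, 2.66 to 3.87 in 2N male minus 2N female early abdomen and 0.50 to 2.46 in 2N male minus 2N female late abdomen. The Def1-2 difference was -1.08 to -0.53 in male head minus abdomen. The log2 ratio ran from -0.26 to 0.26 in 3N minus 2N F2 female head, -0.63 to 0.19 in 2N minus 1N F15 male head and -0.33 to 0.23 in 3N minus 2N F2 female abdomen. The ratio difference was -0.35 to 0.0087 in F14 minus F2 3N female abdomen, -0.28 to 0.57 in 2N minus 1N F15 male abdomen and -0.24 to 1.17 in F15 minus F3 2N male abdomen. A group left with 2 libraries is assumed to vary like the others of its fit.

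Compared groups alone gave no value for Def1-1 in F15 minus F3 2N male heads, where the gene was filtered out, and were not run for interactions and tissue, whose fits hold the same groups. No paired analysis was possible because library names are unique and link no libraries across groups. With 3 to 5 libraries a group and ranges of up to 293-fold within a group, the spread limits what these tests can call, and values of Def1-1 near 0 rest on few counts.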
